A study of Homo sapiens with 3 samples.

Results

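The transcripts of 39 genes of DNA replication and S phase were followed across 3 libraries of polyadenylated RNA. The genes were chosen by name, from the MCM helicase, origin licensing and firing, the replicative polymerases, the sliding clamp and its loader, nucleotide synthesis, fork protection and S phase entry. All 39 were found among the 23284 genes of the table, and all 39 were among the 11870 genes that entered the comparisons. FPKM is a fragment number scaled to transcript length and to library size. A gene was compared if its FPKM averaged 1 or more, no library had a failed quantification, and its longest isoform reached 300 nt.

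The cells were HEK293T, a line from human embryonic kidney that carries adenovirus E1A and SV40 large T antigen. One group received a negative control siRNA, the next an siRNA against ESRP2, an epithelial splicing regulator, and the last an siRNA against Arkadia, a ubiquitin ligase of the TGF-beta pathway encoded by RNF111. None of the groups was given TGF-beta, and all were harvested 48 h after the cells were seeded onto the siRNA mixture. Each group had 1 library, so the values compare libraries, with no replicate check and no p-value. The design asks which transcripts differ after loss of each protein. Both comparisons with control share the same control library.

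A cell copies its genome once per cycle. In G1 the origin recognition complex, CDC6 and CDT1 load the MCM2 to MCM7 ring onto DNA, and at S phase entry MCM10, CDC45 and the GINS complex turn the ring into an active helicase. Polymerase alpha with primase lays down primers, polymerases delta and epsilon extend them on the PCNA clamp, and RFC loads that clamp. Cyclin E and the E2F transcription factors drive this program, and many of its genes are textbook E2F targets. E1A and large T antigen bind the RB protein, which otherwise holds E2F in check. In RNA from whole cultures, fewer cells in S phase and less RNA per cell cannot be told apart.

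The Arkadia siRNA library was the shallowest, at an implied 8.89 M reads, where control siRNA had 11.9 M and ESRP2 siRNA 12.3 M. The values of the 39 genes rest on about 93 (CCNE2) to 15000 (MCM3) reads each. RNF111 had an FPKM of 6.38, 7.65 and 1.15 with control, ESRP2 and Arkadia siRNA, and ESRP2 had 14.8, 4.27 and 21.2, so each target was lowest in the library labelled with its siRNA. The authors' confidence intervals of RNF111 with control and Arkadia siRNA were apart, at 3.15 to 9.59 and 0.5 to 1.82. Those of ESRP2 with control and ESRP2 siRNA overlapped, at 3.34 to 26.3 and 0.0878 to 9.33. Of 10 genes of the kidney and neuronal traits of HEK293 cells, 7 reached an FPKM of 1 in every library, among them NEFL and VIM, and PAX2, PAX8 and LHX1 did not. The summed FPKM of the markers of blood cells, endothelium, fibroblasts and hepatocytes was at most 1.99 per list and library.

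Promoters are shown because control by E2F is a known link between many of these genes. Of the 39 genes, 35 had an entry in the RefSeq promoter table (build GRCh38.p14), which gives 300 bases from 250 before to 50 after a start site; MCM4, MCM5, POLD3 and CCNE2 had none. The promoters were searched on both strands for the E2F words TTTCCCGC, TTTCGCGC, TTTGCCGC and TTTGGCGC, and matches on opposite strands may overlap. E2F1, the transcription factor itself, and MCM6, a helicase subunit, are printed as promoters with such words. TIPIN and SLBP are printed because they were the 2 members whose intervals did not overlap between the knockdown libraries. Sequences run 5′ to 3′ along the gene, with E2F words in capitals:
E2F1, chr20:33686336-33686635, minus strand: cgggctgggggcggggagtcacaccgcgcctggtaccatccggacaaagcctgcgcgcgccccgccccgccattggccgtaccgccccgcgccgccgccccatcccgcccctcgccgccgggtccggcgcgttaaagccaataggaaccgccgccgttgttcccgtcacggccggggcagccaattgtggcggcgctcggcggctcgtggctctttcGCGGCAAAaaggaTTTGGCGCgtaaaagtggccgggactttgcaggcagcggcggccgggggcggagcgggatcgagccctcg
MCM6, chr2:135876394-135876693, minus strand: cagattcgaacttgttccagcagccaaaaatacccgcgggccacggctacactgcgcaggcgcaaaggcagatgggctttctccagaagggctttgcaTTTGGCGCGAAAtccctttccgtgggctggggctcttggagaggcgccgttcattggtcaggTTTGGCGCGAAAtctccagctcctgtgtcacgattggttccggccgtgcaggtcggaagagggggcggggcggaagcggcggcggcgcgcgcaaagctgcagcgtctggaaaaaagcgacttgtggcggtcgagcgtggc
TIPIN, chr15:66356636-66356935, minus strand: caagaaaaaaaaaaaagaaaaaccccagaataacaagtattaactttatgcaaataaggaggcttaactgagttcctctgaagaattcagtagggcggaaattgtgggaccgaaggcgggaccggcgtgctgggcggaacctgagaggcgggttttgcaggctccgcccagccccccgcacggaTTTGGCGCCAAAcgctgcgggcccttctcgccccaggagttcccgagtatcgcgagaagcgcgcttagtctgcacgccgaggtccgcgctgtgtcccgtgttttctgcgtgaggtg
SLBP, chr4:1712270-1712569, minus strand: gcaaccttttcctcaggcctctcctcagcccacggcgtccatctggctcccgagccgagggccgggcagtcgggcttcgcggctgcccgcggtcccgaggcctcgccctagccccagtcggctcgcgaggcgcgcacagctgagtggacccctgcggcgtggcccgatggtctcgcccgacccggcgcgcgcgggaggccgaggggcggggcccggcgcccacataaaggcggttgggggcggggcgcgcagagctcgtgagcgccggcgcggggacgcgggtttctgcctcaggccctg

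An E2F word stood in the promoters of 17 of 35 members (48.6%), against 598 of 8612 compared genes with a promoter entry (6.94%) and 3.31% of all 35116 promoters. A gene counted if any of its promoter entries held a word, whereas the 3.31% counts single entries and is not a like measure. In 16 of the 17 a word began between 100 bases before and 10 bases after the start. In MCM6 the capitals hold 2 stretches, each of 2 words that overlap on opposite strands. In TIPIN 1 stretch, which reads the same on both strands, begins 66 bases before the start, and the other TIPIN entry has no such word. SLBP had none in this window. The CCAAT box, the letters CCAAT on either strand, stood in the promoters of 23 of 35 members (65.7%) against 44.3% of compared genes, and 11 members had both motifs. These are letter matches and not measured binding.

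The replication genes were abundant in every library. Their median FPKM was 51.2 with control siRNA, where the median of all 11870 genes was 11, and 38 of 39 members lay above that median. The exception was CCNE2, the less abundant of the 2 cyclin E genes here, with 3.86. With ESRP2 siRNA the members' median FPKM was 68.2, with 38 members above the 12.1 of all genes, and with Arkadia siRNA it was 39.9, with 37 above 10.5. The members held 0.597%, 0.619% and 0.493% of the summed FPKM of the control, ESRP2 and Arkadia siRNA libraries.

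The subunits of the MCM ring enter it in equal numbers, and their transcript levels spanned a range of 2.47-fold to 4.30-fold, depending on the library. In the control library the FPKM ran from 124 for MCM6 to 306 for MCM7, a 2.47-fold range. With ESRP2 siRNA it ran from 127 for MCM6 to 393 for MCM3, or 3.09-fold, and with Arkadia siRNA from 90.3 for MCM6 to 388 for MCM5, or 4.30-fold. MCM6 was thus the lowest subunit in each library, while the highest was a different subunit each time. With control siRNA, however, MCM7 and MCM5 were nearly level, at 306 and 305. GINS2 and GINS1, 2 subunits of the GINS complex, stood further apart, at 183 and 11.8 FPKM with control siRNA, a 15.5-fold difference. With ESRP2 siRNA they differed 7.37-fold and with Arkadia siRNA 20.7-fold. Among the clamp loader subunits RFC1 was lowest in each library, at 23.0, 31.4 and 18.4, and RFC2 highest, at 94.4, 109 and 95.2.

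**Figure D1:**
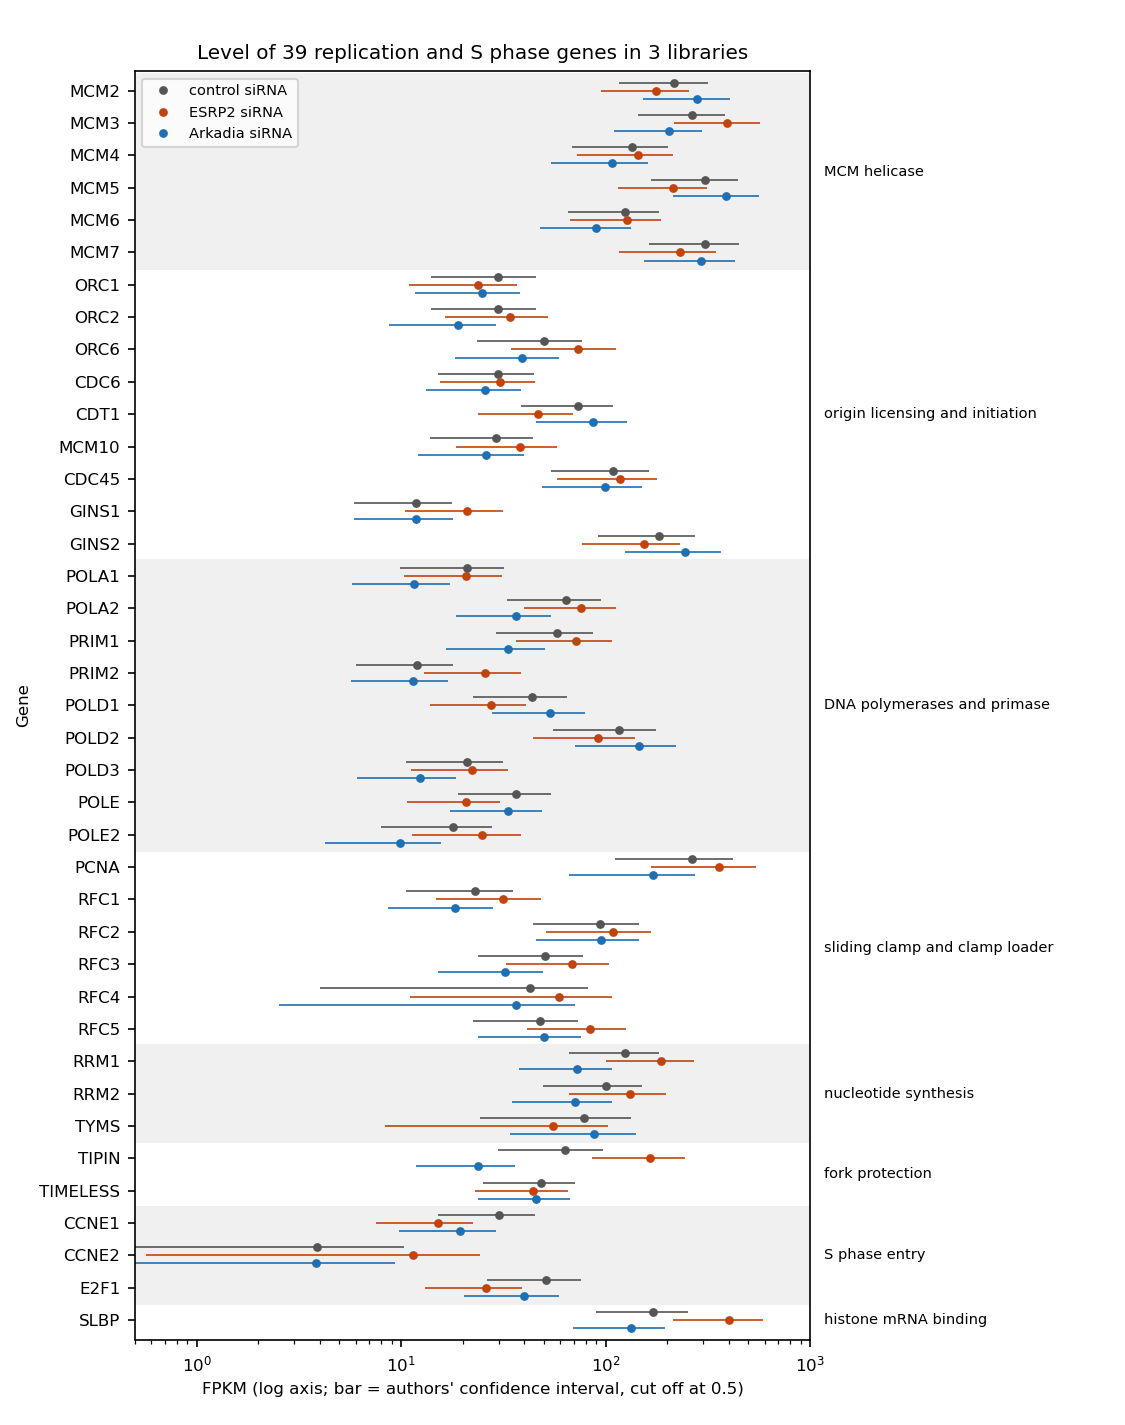
FPKM (log axis) of the 39 genes, grouped by role, in the control (grey), ESRP2 (orange) and Arkadia (blue) siRNA libraries, 1 library each; bars are the authors' confidence intervals, cut off at 0.5. MCM genes and PCNA sit near the top of the range, CCNE2 at the bottom, and the intervals of TIPIN and SLBP are apart between the knockdown libraries.

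With ESRP2 siRNA the replication genes were called about as often as all genes at 1.5-fold. At a size of 1.5-fold on the scale log2((FPKM + 1)/(FPKM + 1)), 7 of 39 were higher than control, or 17.9%, where 19.9% of all genes were. Another 5 were lower, or 12.8%, against 11.4% of all genes. The median log2 ratio of the members was 0.20, and 0.12 over all genes. At 2-fold, 4 of 39 members were higher, a larger share than the 5.45% of all genes, and 0 were lower against 2.42%. No member had an interval apart from that of control, where 1.28% of all genes did. After rescaling by the median of ratios, which moved the median of all genes from 0.12 to 0.01, the members split 6 higher and 7 lower, where 14.5% and 15.5% of all genes were.

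Among the licensing and firing factors, CDT1, which loads the MCM ring and is restrained by geminin, had an FPKM of 73.6, 46.8 and 86.9 with control, ESRP2 and Arkadia siRNA. It was lowest with ESRP2 siRNA, with a log2 ratio to control of -0.64. GINS1 stood at 11.8, 21.0 and 11.9, higher with ESRP2 siRNA alone, by a log2 ratio of 0.78. ORC1, ORC2, ORC6, CDC6, MCM10, CDC45 and GINS2 ranged from a log2 ratio of -0.31 to 0.54 and passed in neither direction. The 6 MCM ring genes did not pass either, with log2 ratios from -0.51 for MCM5 to 0.57 for MCM3.

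Of 9 polymerase and primase genes 1 was higher and 2 were lower with ESRP2 siRNA. PRIM2, the large primase subunit, had an FPKM of 12, 25.7 and 11.4 with control, ESRP2 and Arkadia siRNA, 2.15-fold higher with ESRP2 siRNA than with control. Part of this gene is duplicated in the human genome, so its reads are uncertain. The catalytic subunits POLE, of polymerase epsilon, and POLD1, of polymerase delta, were lower. POLE stood at 36.5, 20.7 and 33.2 and POLD1 at 43.7, 27.4 and 53.6, with log2 ratios to control of -0.79 and -0.65. The accessory subunit POLE2 of the same epsilon enzyme had a log2 ratio of 0.45, so the POLE to POLE2 ratio of FPKM was 2.04 with control siRNA, 0.832 with ESRP2 siRNA and 3.36 with Arkadia siRNA. Ratios between 2 genes are not adjusted for transcript GC content, which was 56.4% for POLE and 41.7% for POLE2.

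All 6 genes of the clamp and its loader had log2 ratios above 0 with ESRP2 siRNA, from 0.21 for RFC2 to 0.79 for RFC5, and RFC5 alone passed 1.5-fold. Of all 11870 genes, 6871 lay above 0 in this comparison. After the subtraction of GC decile medians described below, the median of the 6 went from 0.43 to 0.14, and 0 passed. RFC5, a small loader subunit, stood at 47.8, 83.6 and 49.8 FPKM with control, ESRP2 and Arkadia siRNA. RRM1, the large subunit of ribonucleotide reductase, which makes deoxynucleotides, passed narrowly with 124 against 187 and a log2 ratio of 0.59.

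The 3 highest ratios with ESRP2 siRNA belonged to TIPIN, CCNE2 and SLBP. TIPIN (chromosome 15, 66629008 to 66649054 on hg19, a locus that also holds SCARNA14), the partner of TIMELESS at the fork, had an FPKM of 63.6, 165 and 23.9 with control, ESRP2 and Arkadia siRNA. It was high with ESRP2 siRNA and low with Arkadia siRNA, with log2 ratios to control of 1.36 and -1.38. TIMELESS was nearly level at 48.1, 44.1 and 45.5, so the TIMELESS to TIPIN ratio of FPKM was 0.756, 0.267 and 1.91. SLBP (chromosome 4, 1694527 to 1714030 on hg19), which binds the stem-loop of replication-dependent histone mRNA, stood at 171, 401 and 133, 2.34-fold higher with ESRP2 siRNA than with control.

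The S phase entry genes went in opposite directions with ESRP2 siRNA. E2F1 had an FPKM of 51.2, 26.0 and 39.9 and CCNE1, the main cyclin E gene here, 30.2, 15.1 and 19.5 with control, ESRP2 and Arkadia siRNA. Both were highest with control siRNA, with log2 ratios of -0.95 and -0.96 with ESRP2 siRNA. CCNE2 stood at 3.86, 11.5 and 3.82, with a log2 ratio of 1.36 with ESRP2 siRNA, from about 130 and 390 reads. The lower bound of its interval was 0, 0.565 and 0 in the 3 libraries. Its locus (chromosome 8, 95835534 to 95907482 on hg19) is shared with INTS8. The CCNE1 to CCNE2 ratio of FPKM was 7.82 with control siRNA, 1.31 with ESRP2 siRNA and 5.09 with Arkadia siRNA.

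With Arkadia siRNA the replication genes lay to the lower side. Of 39 members 11 were lower than control at 1.5-fold, or 28.2%, where 11.8% of all genes were, and 0 were higher, where 9.81% of all genes were. The median log2 ratio was -0.25, and -0.02 over all genes. Below 0 lay 29 members and above it 10, where 6096 and 5773 of all 11870 genes did. At 2-fold 0 were higher against 1.68% of all genes, and 1 was lower, TIPIN, against 2.24%. No member had an interval apart from that of control, where 0.438% of all genes did.

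The polymerase and primase genes held 5 of the 11. POLA1, the catalytic subunit of polymerase alpha, had an FPKM of 20.9, 20.8 and 11.6 with control, ESRP2 and Arkadia siRNA. POLA2, its accessory subunit, had 63.9, 76.0 and 36.5, and PRIM1, the small primase subunit, 58.2, 71.9 and 33.5. These 3 subunits of the primer-making complex were lowest with Arkadia siRNA, with log2 ratios to control of -0.80, -0.79 and -0.78, whereas the remaining subunit, PRIM2, had -0.06. POLE2 stood at 17.9, 24.8 and 9.89 and POLD3, an accessory subunit of polymerase delta, at 21.1, 22.2 and 12.4, with log2 ratios of -0.80 and -0.72. POLD1, POLD2 and POLE passed in neither direction, at 0.29, 0.33 and -0.13.

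PCNA, the clamp, had an FPKM of 264, 357 and 170 with control, ESRP2 and Arkadia siRNA and a log2 ratio of -0.63 with Arkadia siRNA. RFC3 had 50.8, 68.2 and 32.2, with -0.64, and the other 4 loader genes were between -0.31 and 0.06. RRM1 had 124, 187 and 72.3, with -0.77. In each of these 3 genes the ESRP2 siRNA library was the highest and the Arkadia siRNA library the lowest. RRM2, the subunit of ribonucleotide reductase whose level follows the cell cycle, had 100, 132 and 70.9 and did not pass, with a log2 ratio of -0.49. TYMS, thymidylate synthase, had 78.3, 55.4 and 87.5 and passed in neither comparison with control; it lies at a locus shared with ENOSF1, CLUL1 and C18orf56, and its reads are uncertain.

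ORC2, a subunit of the origin recognition complex, was the only licensing or firing gene past 1.5-fold with Arkadia siRNA, at 29.8, 34.3 and 18.9 FPKM with control, ESRP2 and Arkadia siRNA and a log2 ratio of -0.63. GINS2 had the highest ratio of all members, 0.42, at 183, 155 and 246. The MCM ring genes ranged from -0.45 for MCM6 to 0.36 for MCM2 and none passed. TIPIN was the lowest of the 39, at about 270 reads against about 970 with control siRNA. CCNE1 was 1.55-fold lower, with a log2 ratio of -0.61, and E2F1 and SLBP had ratios of -0.35 and -0.36.

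**Figure D2:**
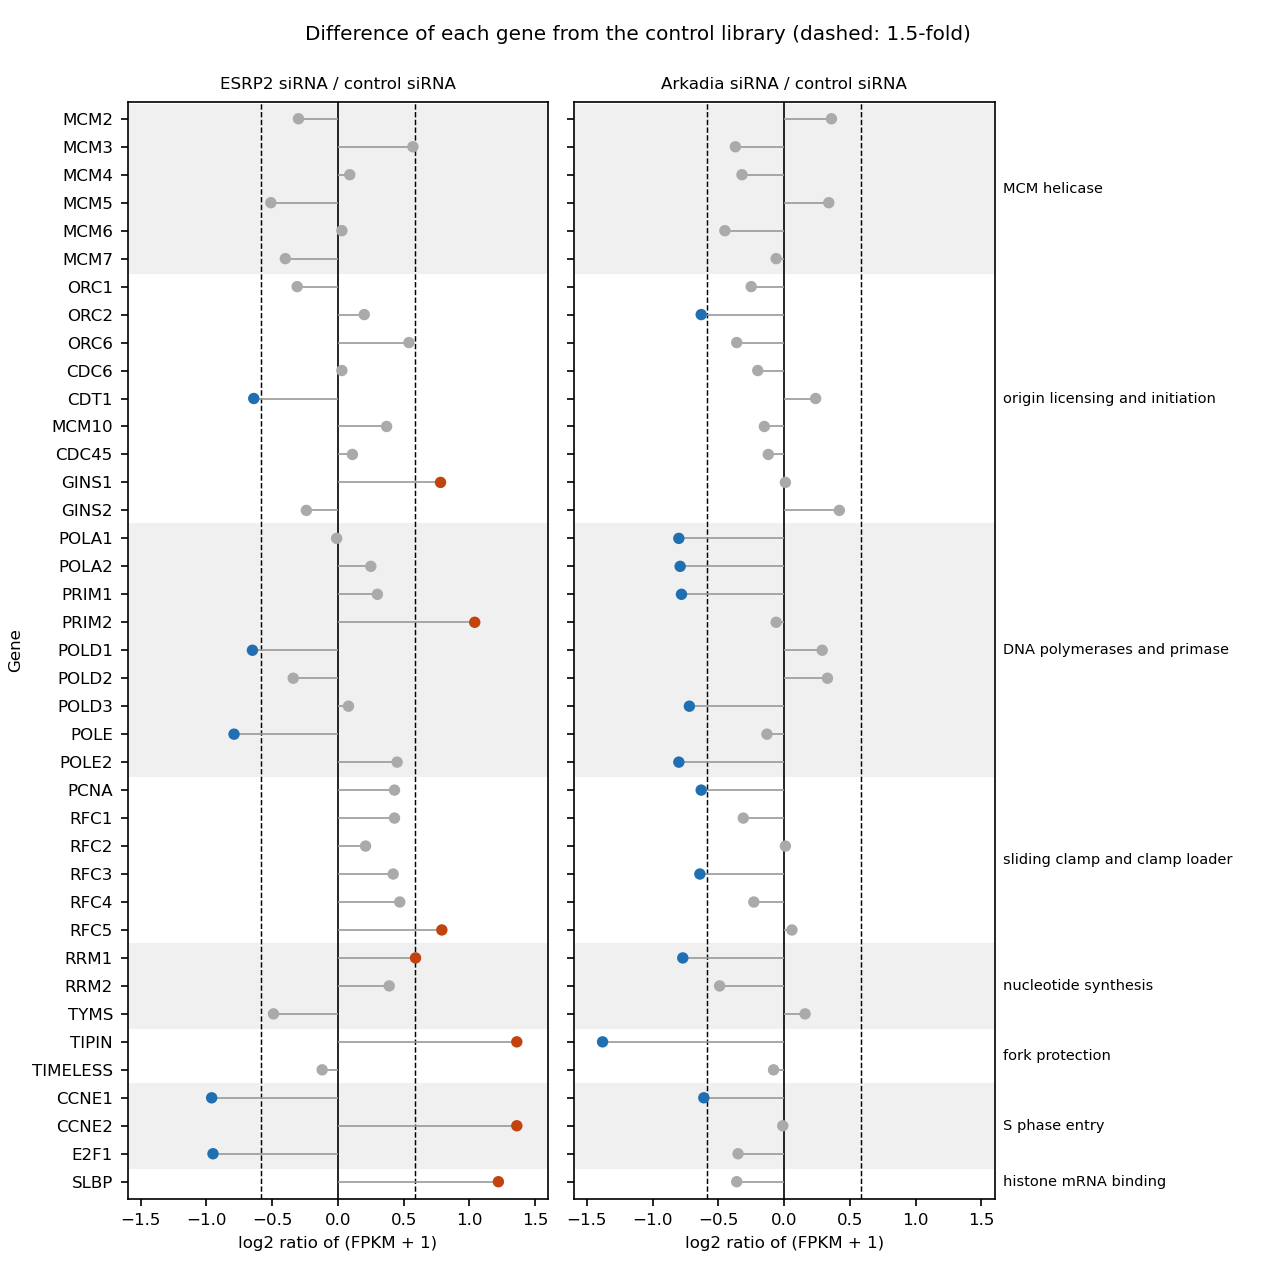
Log2 ratio of (FPKM + 1) to the control library for each of the 39 genes, with ESRP2 siRNA (left) and Arkadia siRNA (right); dashed lines mark 1.5-fold, orange points were higher and blue points lower at that size. Orange and blue points are mixed on the left (7 and 5), while the right panel holds 11 blue points and 0 orange ones.

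Between the knockdown libraries themselves, most replication genes were lower with Arkadia siRNA. Of 39 members 20 were lower than with ESRP2 siRNA, or 51.3%, where 30.8% of all genes were, and 9 were higher, or 23.1%, where 21.2% of all genes were. At 2-fold 0 were higher against 8.90% of all genes and 10 lower against 15.5%. The median log2 ratio was -0.70, and -0.14 over all genes. The 20 comprised 6 polymerase and primase genes, 5 clamp and loader genes, ORC2, ORC6, GINS1, MCM3, RRM1, RRM2, TIPIN, CCNE2 and SLBP. The 9 were MCM2, MCM5, CDT1, GINS2, POLD1, POLD2, POLE, TYMS and E2F1. In 22 of 39 members (56.4%) the order of levels was ESRP2, control, Arkadia siRNA, from high to low, which held for 36.3% of all genes.

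TIPIN and SLBP were the 2 members whose intervals did not overlap in this comparison, where 6.36% of all genes had such intervals. For TIPIN the interval was 85.9 to 244 with ESRP2 siRNA and 11.8 to 35.9 with Arkadia siRNA, a 6.92-fold difference in FPKM. For SLBP it was 214 to 587 and 69.5 to 196, a 3.02-fold difference. The control value of each lay between the 2, in an interval that overlapped both. In the median of 117 values the authors' interval reached 49.9% of the FPKM to either side.

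**Figure D3:**
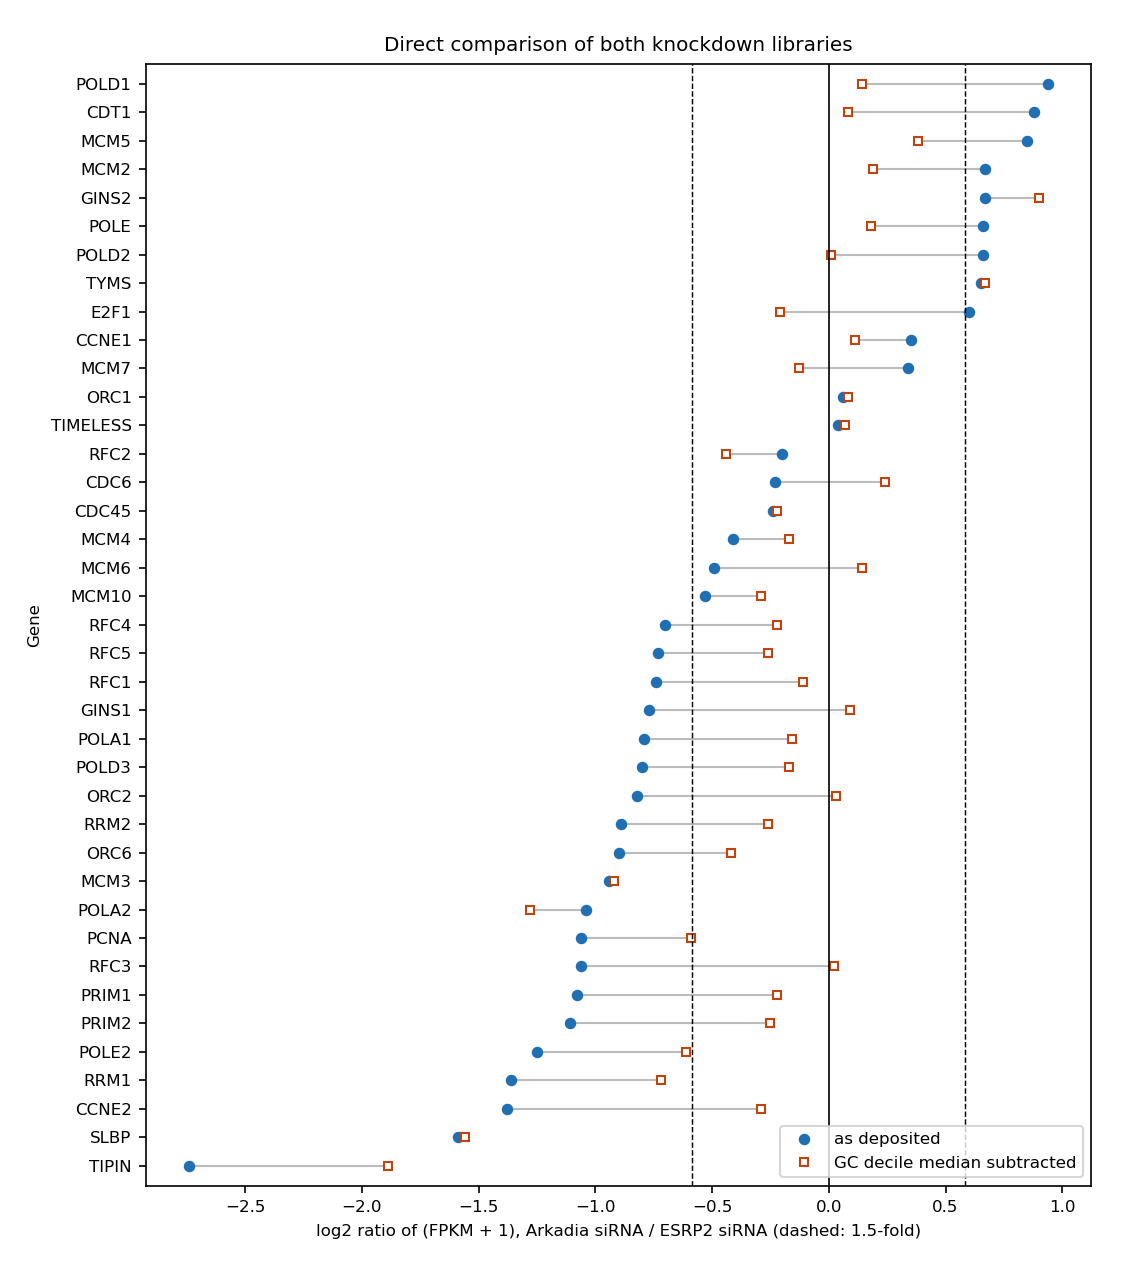
Log2 ratio of (FPKM + 1), Arkadia siRNA over ESRP2 siRNA, of the 39 genes, from the deposited FPKM (filled circles) and after the median of the gene's GC decile was subtracted (open squares); dashed lines mark 1.5-fold. TIPIN and SLBP stay far to the left, at -1.89 and -1.56, while the polymerase genes other than POLA2 and POLE2 move inside the dashed lines.

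The differences of the replication genes moved with the GC content of their transcripts, as those of all genes did. Transcript GC content of the 39 ran from 35.4% for CCNE2 to 64.9% for CDT1, with a median of 47.2%, and 49.3% over all genes. Across the 39 genes, which share the 3 libraries and are not replicates, Spearman's correlation of GC content with the log2 ratio was -0.70 for ESRP2 siRNA over control, 0.52 for Arkadia siRNA over control and 0.76 for Arkadia over ESRP2 siRNA. Across 11760 genes with a GC value it was -0.64, 0.56 and 0.75. Of the 19 members below the members' median GC content, 17 were lower and 0 higher with Arkadia than with ESRP2 siRNA. Of the 19 above it, 3 were lower (MCM3, POLA2 and SLBP) and 9 higher. Over all genes 30.8% were lower and 21.2% higher in this comparison. The median log2 ratio of all genes ran from -1.08 in the lowest GC decile to 0.80 in the highest.

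When the median of each GC decile of all genes was subtracted, fewer members passed 1.5-fold. For ESRP2 siRNA over control 3 were higher (TIPIN, CCNE2 and SLBP), or 7.69% against 9.18% of all genes, and 1 lower (CCNE1), or 2.56% against 7.65%. For Arkadia siRNA over control 4 were lower (POLA2, TIPIN, CCNE1 and E2F1), or 10.3% against 7.03% of all genes, and 0 were higher against 6.32%. For Arkadia over ESRP2 siRNA 7 were lower (MCM3, POLA2, POLE2, PCNA, RRM1, TIPIN and SLBP), or 17.9% against 14.0%, and 2 higher (GINS2 and TYMS), or 5.13% against 12.4%. The members' medians were then -0.07, -0.18 and -0.17, with 0.00 over all genes in each comparison. The part of GC content in these differences was not tested further.

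SLBP, at a GC content of 50.7%, hardly moved with this subtraction, with a log2 ratio of 1.16 for ESRP2 siRNA over control. TIPIN, at 41.3%, went from 1.36 to 0.85 and from -1.38 to -1.04 in its comparisons with control. The lower values of POLA1 and PRIM1 with Arkadia siRNA went to -0.57 and -0.44, inside 1.5-fold, and POLA2, at 54.5%, went from -0.79 to -0.93. CDT1, POLD1 and POLE, with GC contents of 64.9%, 64.8% and 56.4%, went to -0.15, -0.16 and -0.56 with ESRP2 siRNA.

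**Figure D4:**
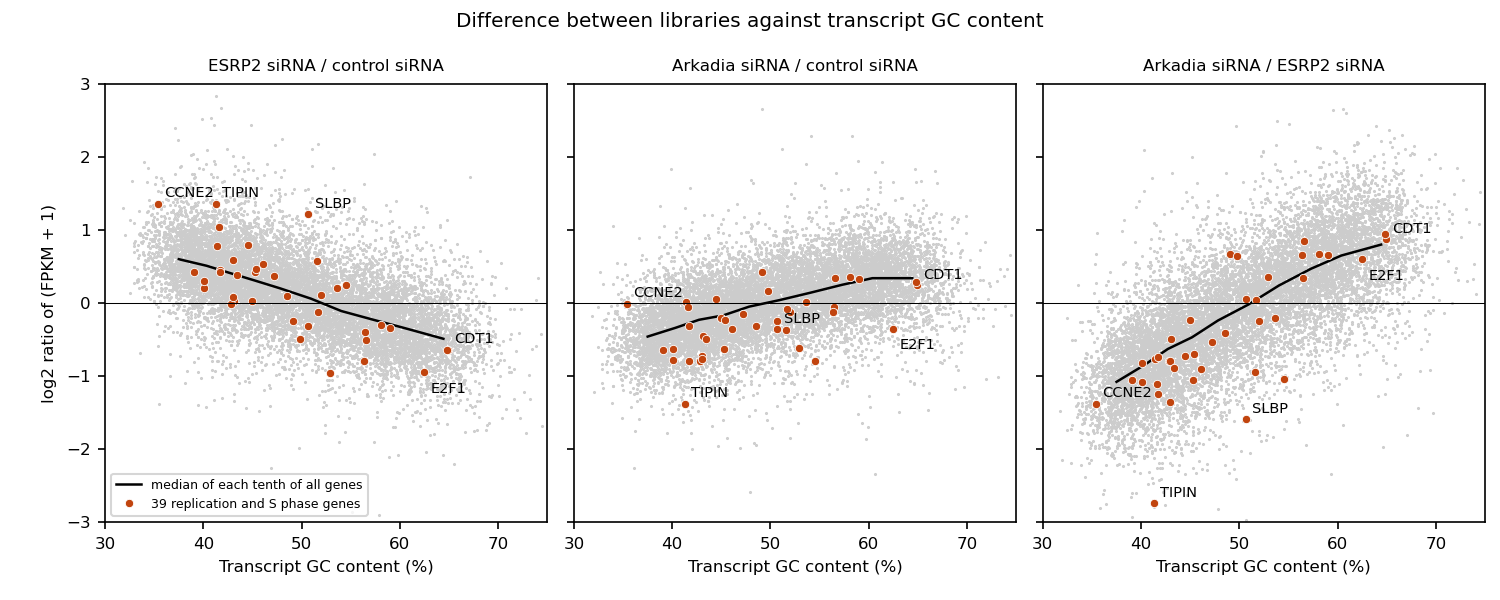
Log2 ratio of (FPKM + 1) against transcript GC content for all compared genes (grey), the median of each GC decile (line) and the 39 replication and S phase genes (orange), in each comparison; genes outside the axes are not drawn. Most members follow the line. Off it lie, among others, TIPIN, SLBP and CCNE1 in the left panel and TIPIN, SLBP and POLA2 in the right. In the middle panel TIPIN, POLA2 and CCNE1 are among those off it.

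The members were also described by whether their promoter held an E2F word. Of the 17 members with one, 6 were lower and 0 higher with Arkadia siRNA than with control, and of the 18 without, 4 were lower and 0 higher. With ESRP2 siRNA 2 and 4 were higher and 3 and 2 lower in these groups. Over all genes 9.81% were higher and 11.8% lower with Arkadia siRNA, and 19.9% and 11.4% with ESRP2 siRNA. All genes were not split by E2F word, so a link of these counts to the words was not tested. The median log2 ratios for ESRP2 siRNA were 0.03 and 0.33, for transcripts with a median GC content of 49.1% and 46.7%. E2F1, whose words begin 33 and 20 bases before its start, was lower with ESRP2 siRNA, and TIPIN, with its overlapping words, was higher. After GC subtraction the E2F1 ratio was -0.46, inside 1.5-fold, at a GC content of 62.5%, and that of TIPIN was 0.85.

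Several isoforms were annotated for 16 of the 39 genes, and all 16 were abundant enough in each library (isoform FPKM summing to 5 or more). A change in isoform shares of at least 0.25 (0 if shares are equal and 1 if no isoform is shared) was seen in 1 of 16 for ESRP2 siRNA over control, where 20% of 3455 genes had one, in 3 for Arkadia siRNA over control against 17.1%, and in 4 for Arkadia over ESRP2 siRNA against 26.3%. The genes were ORC1, MCM10, POLE2 and RFC2. In ORC1 the isoform of 3169 nt took 98.8%, 71.2% and 31.7% of the summed FPKM with control, ESRP2 and Arkadia siRNA, and the isoform of 3166 nt 0.0%, 28.8% and 64.1%. In MCM10 the isoform of 4547 nt took 69.1%, 70.9% and 32.4%, and the isoform of 4550 nt the rest. The isoforms of each of these pairs differ in length by 3 nt, and how many reads tell them apart was not counted.

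In POLE2 the isoform of 1861 nt took 75.4%, 70.4% and 40.2%, and that of 1758 nt 7.3%, 6.5% and 59.4% of the summed FPKM with control, ESRP2 and Arkadia siRNA. The share of the short isoform was thus high in the Arkadia siRNA library, where the gene as a whole was lowest and rested on about 160 reads. Control siRNA left this isoform at an FPKM of 1.31 (0 to 4.26) and Arkadia siRNA at 5.87 (1.51 to 10.2), in overlapping intervals. In RFC2 the isoform of 1694 nt took 67.0%, 50.5% and 85.6%. PCNA, RRM2, MCM7 and the other multi-isoform members kept a share change under 0.25 in each comparison.

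**Figure D5:**
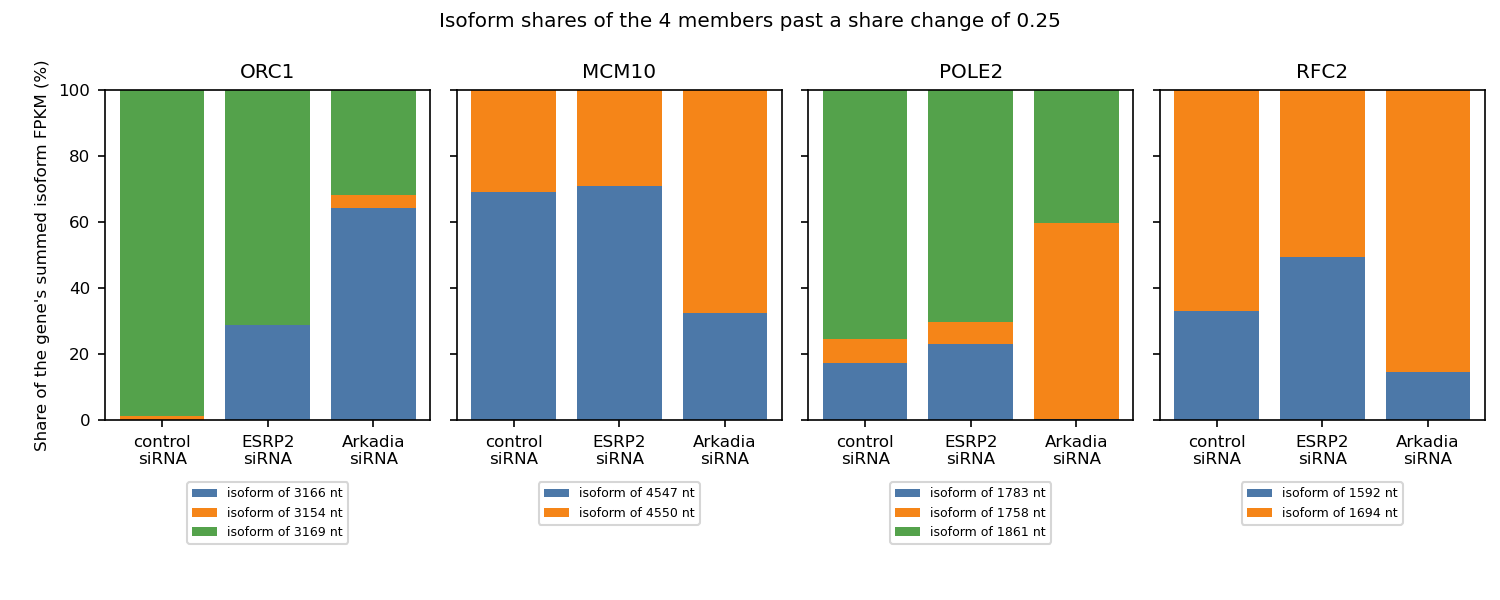
Share of each annotated isoform in the summed isoform FPKM (percent) of ORC1, MCM10, POLE2 and RFC2 in the 3 libraries, 1 library each; colours mark isoforms by length. The Arkadia siRNA bars of ORC1, MCM10 and POLE2 differ most from control, with 64.1% for the ORC1 isoform of 3166 nt.

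Replication factors outside the 39 were counted from a list of 37. Of 36 compared, among them the single-strand binding protein RPA, the kinase CDC7 and chromatin assembly factors, 10 were higher and 3 lower with ESRP2 siRNA than with control, and 1 was higher and 10 lower with Arkadia siRNA. Over all genes the shares were 19.9% and 11.4%, and 9.81% and 11.8%. After GC subtraction 4 were higher and 2 lower, and 0 higher and 3 lower. Over all genes the shares after GC subtraction were 9.18% and 7.65%, and 6.32% and 7.03%. Both sets of shares apply to the lists that follow too. RPA3, the smallest RPA subunit, had an FPKM of 24.9, 76.2 and 16.2 with control, ESRP2 and Arkadia siRNA, and the nuclease and helicase DNA2 17.3, 43.6 and 10.4. RPA3 and DNA2 were high with ESRP2 siRNA, in intervals apart from those with Arkadia siRNA. RNASEH2A, a subunit of the enzyme that removes RNA from DNA, went the other way at 125, 75.9 and 168, and the histone chaperone ASF1B stood at 75, 62.1 and 125. The median log2 ratios of the list were 0.41 and -0.33, and 0.09 and -0.09 after GC subtraction.

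Of 15 further nucleotide synthesis genes 14 were compared, and 4 were higher and 1 lower with ESRP2 siRNA, and 1 was higher and 6 lower with Arkadia siRNA. After GC subtraction the counts were 1 and 0, and 1 and 2. RRM2B, the p53-inducible subunit of ribonucleotide reductase, had an FPKM of 9.59, 17.3 and 3.92 with control, ESRP2 and Arkadia siRNA, and deoxycytidine kinase DCK 11.8, 20.6 and 5.47. Thymidine kinase TK1 was higher in both knockdown libraries, at 36.0, 63.1 and 85.2. Of 25 genes of the E2F and RB pathway 4 were higher and 5 lower with ESRP2 siRNA, and 1 was higher and 2 lower with Arkadia siRNA. After GC subtraction the counts were 3 and 4, and 1 and 5. The CDK inhibitor CDKN1B stood at 20.7, 56.0 and 25.1, the G1 kinase CDK4 at 317, 158 and 225, and the repressor E2F4 at 91.3, 52.4 and 49.2. CDKN1B was thus high with ESRP2 siRNA, and CDK4 and E2F4 were highest with control siRNA. Another CDK inhibitor, CDKN1A, was lowest with ESRP2 siRNA, at 21.7, 11.7 and 25.5. The cyclin gene CCNA2 was highest there, at 54.6, 113 and 43.1.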

How the data were processed

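Polyadenylated RNA of HEK293T cells was sequenced in 3 libraries, 1 for each siRNA. The authors deposited FPKM values with confidence bounds. The submitters' processing notes name hg19, Cuffdiff, Cufflinks 2.1.1, TopHat2 2.0.10 and Bowtie2 2.1.0. Library scaling, strand use and annotation: not given in the sources used here. Per-gene isoform lengths came from the deposited isoform table.

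From these, log2((FPKM + 1)/(FPKM + 1)) was computed with Python 3.11.15 and pandas 2.3.3; this scale understates changes of low genes. A gene was called higher or lower at 1.5-fold. There are no replicates and no tests; overlap of the authors' intervals is given instead. The members and all gene lists were chosen with earlier results of these data known. Every member may be named; of each other list, up to 2 genes per direction and comparison.

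Depth was implied from the interval bounds of 1999 low genes of 2312 examined, which were whole multiples of a unit (tolerance 0.01); 79% of these shared 1 unit. Read numbers are estimates. Transcript GC content was taken from GENCODE 29 (97.2% of compared genes by accession and 1.83% by symbol), without coordinates. Positions are those of the deposited table on hg19, and promoters are from RefSeq on GRCh38.p14. Alternatives covered the pseudocount, the filter, the scaling, the fold size, intervals, the isoform table, GC content and length.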

Additional observations from a re-analysis of the deposited data

How the results depend on the processing

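With 1 library per group no replicate could be left out, and no paired analysis was possible because each group has 1 sample. Another pseudocount, another filter on FPKM, the summed isoform table, length subtraction and both rescalings kept every count of higher and lower members within 1.5 times. At 2-fold, 4 members were higher and 0 lower with ESRP2 siRNA, 1 was lower with Arkadia siRNA (TIPIN), and 0 were higher and 10 lower between Arkadia and ESRP2 siRNA. When 1.5-fold and intervals apart were both required, these counts were 0 and 0, 0, and 0 and 2. Over all genes the shares at 2-fold were 5.45% and 2.42%, 2.24%, and 8.90% and 15.5%. With intervals apart they were 0.868% and 0.413%, 0.244%, and 1.90% and 4.47%. GC subtraction gave 3 and 1, 4, and 2 and 7, by its own construction of removing the trend with GC content. Over all genes it gave 9.18% and 7.65%, 7.03%, and 12.4% and 14.0%. The members' median with ESRP2 siRNA was 0.07 after rescaling by the median of ratios, 0.03 at the upper quartile, 0.02 after length subtraction and -0.07 after GC subtraction, so its place above 0 depends on the scaling. Between Arkadia and ESRP2 siRNA it was -0.54 under each rescaling, -0.42 after length subtraction and -0.17 after GC subtraction. Of the members called in that comparison, GC subtraction turned the direction of ORC2 (0.03), GINS1 (0.09), RFC3 (0.02) and E2F1 (-0.21), and of those not called MCM6 (0.14), CDC6 (0.24) and MCM7 (-0.13). Of 117 member values, 64 kept their call in all alternatives. With a summed FPKM of at least 10, isoform changes were seen in 1, 2 and 3 of 15 members, without a share over all genes at that setting. MCM7, RFC4, TYMS, POLA1, PCNA, TIPIN and CCNE2 lie at loci shared with other genes, and POLD2, PCNA, RFC3, RFC5, RRM2 and TYMS have annotated pseudogenes, so their reads are uncertain.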

Other observations

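Checkpoint and mitosis genes were counted in the same way, where 19.9% of all genes were higher and 11.4% lower with ESRP2 siRNA, and 9.81% and 11.8% with Arkadia siRNA. Of 8 genes of the S phase checkpoint, 1 was higher and 0 lower with ESRP2 siRNA, and 0 were higher and 2 lower with Arkadia siRNA. After GC subtraction the counts were 0 and 0, and 0 and 1. Over all genes the shares were then 9.18% and 7.65%, and 6.32% and 7.03%, which apply to the mitosis genes below too. RAD17, the loader of the checkpoint clamp, had an FPKM of 11.2, 23.7 and 8.94 with control, ESRP2 and Arkadia siRNA, and the effector kinase CHEK1 29, 33.8 and 17. WEE1, which restrains CDK1, stood at 20.8, 28.4 and 13.4; its ratio of -0.60 with Arkadia siRNA was -0.65 after GC subtraction, at a GC content of 51.3%.

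Of 20 mitosis genes 3 were higher and 2 lower with ESRP2 siRNA, and 1 was higher and 3 lower with Arkadia siRNA. After GC subtraction the counts were 2 and 1, and 2 and 0. The spindle checkpoint gene MAD2L1 had an FPKM of 179, 276 and 97.1 with control, ESRP2 and Arkadia siRNA, with intervals apart between the knockdown libraries. Its log2 ratio with Arkadia siRNA went from -0.87 to -0.54 after GC subtraction. CDC20, the 1 gene higher with Arkadia siRNA, stood at 115, 152 and 210, and its ratio went from 0.86 to 0.61. With ESRP2 siRNA CDK1 had the highest ratio of the list, 1.36, at 69.7, 181 and 60.2. ESPL1 had the lowest, -0.84, at 23.1, 12.5 and 26.1. After GC subtraction these 2 ratios were 0.76 and -0.61. The list's medians were 0.39 and -0.11, and -0.03 and 0.05 after GC subtraction.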
